A study of Mus musculus with 4 samples.

Results

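The mouse genes that encode the variable (V) and constant (C) parts of the lambda antibody light chain were examined in sorted splenic B cells. They are Iglv1, Iglv2 and Iglv3, the V genes, and Iglc1, Iglc2 and Iglc3, the constant genes. They were chosen by name, not by any measured value, and all 6 were found among the 37646 genes listed for each library. All 6 also passed the filter on low counts used for the test of variation below.

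RNA came from 4 libraries that form 1 group, with no other group to set against it. The mice were C57BL/6 controls called YC, genotype YFPstopF/+Cg1Cre/+, in which Cre made from the Cg1 locus, the constant gene of IgG1, removes a stop ahead of a YFP reporter. They had received sheep red blood cells into the peritoneum on 2 occasions 20 days apart, and spleens were collected 10 days after the later injection. Living B220+YFP+ cells, which the labels call GC (germinal centre) B cells, were sorted and their poly(A) RNA sequenced, while the lymphoma samples of the design text were not analysed here. For the age of the mice, the sources used here give nothing. The reporter stays on once Cre has acted, so it marks the descendants of such cells as well. Whether the libraries came from separate animals is not in the labels, so p-values below measure only the spread between these samples. That spread may be technical, except that sex-linked genes, given below, set library 3 apart as coming from another animal.

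A B cell makes its light chain from either the kappa or the lambda locus. In a developing B cell, 1 V gene is joined to 1 short joining (J) segment, and the join is spliced to the constant gene behind that J segment. The kappa locus usually rearranges first, and mice have many kappa V genes but very few lambda V genes, so most mouse antibodies carry kappa. Lambda chains nevertheless serve some responses well, and the lambda1 chain of C57BL/6 mice is a classic example in the response to the hapten NP. The J and constant genes stand in cassettes, and a V gene joins mainly to cassettes that lie downstream of it and not far away. Germinal centre B cells then mutate the joined V region and are selected on the antibody they make.

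The locus lies on the minus strand of chromosome 16 (mm10). Iglv2 (chr16:19260401-19260859) comes first in the direction of transcription, and Iglv3 (chr16:19241207-19241690) starts 19.2 kb after it. Iglc2 (chr16:19198396-19200351) starts 60.5 kb after the start of Iglv2, and the cassette of Iglj4 and Iglc4 follows. Iglv1 (chr16:19085017-19085500) starts at 175.4 kb. Iglc3 (chr16:19065230-19065681) follows at 195.2 kb and Iglc1 (chr16:19061618-19062071) at 198.8 kb. Iglv1 thus has the cassettes of Iglc3 and Iglc1 just downstream, and Iglv2 and Iglv3 have that of Iglc2. Each V gene is annotated with 2 exons, a leader exon and the exon of the variable domain.

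**Figure D1:**
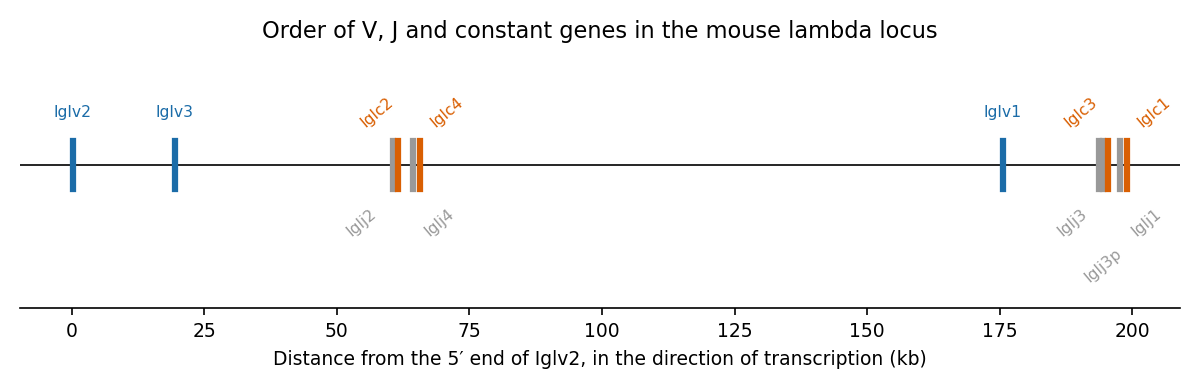
Position of the lambda V (blue), J (grey) and constant (orange) genes as distance in kb from the 5′ end of Iglv2, in the direction of transcription. Iglv2 and Iglv3 lie ahead of the Iglc2 cassette, and Iglv1 lies ahead of the cassettes of Iglc3 and Iglc1.

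The J segments are shown because they join the V and constant parts. Capitals mark the letters TTCGG, searched on the given strand, which spell the phenylalanine and begin the glycine of the joining motif. Of the 5 segments, 4 hold these letters and Iglj3p does not. Sequences here and below are GENCODE M21 transcripts, 5′ to 3′ on the minus strand.
Iglj1: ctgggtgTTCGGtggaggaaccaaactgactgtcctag
Iglj2: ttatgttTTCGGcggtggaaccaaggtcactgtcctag
Iglj3: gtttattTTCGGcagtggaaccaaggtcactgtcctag
Iglj3p: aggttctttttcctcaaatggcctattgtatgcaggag
Iglj4: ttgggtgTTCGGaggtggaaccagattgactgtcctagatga

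The last 60 bases of the V genes, which run into the third hypervariable loop, show how close Iglv1 and Iglv2 are. Capitals mark the 3 positions at which Iglv1 and Iglv2 differ, and Iglv3 is printed without capitals because it does not align base for base.
Iglv1: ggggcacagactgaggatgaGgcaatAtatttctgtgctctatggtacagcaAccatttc
Iglv2: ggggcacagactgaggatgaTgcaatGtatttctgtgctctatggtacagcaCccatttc
Iglv3: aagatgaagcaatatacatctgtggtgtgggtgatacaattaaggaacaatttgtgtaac

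The first 60 bases of the constant exons carry the same kind of relation for Iglc2 and Iglc3. Capitals mark the 13 positions that are not the same in all 3 genes.
Iglc1: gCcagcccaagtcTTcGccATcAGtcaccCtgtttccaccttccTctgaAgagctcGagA
Iglc2: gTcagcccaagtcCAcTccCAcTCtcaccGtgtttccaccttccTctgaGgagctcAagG
Iglc3: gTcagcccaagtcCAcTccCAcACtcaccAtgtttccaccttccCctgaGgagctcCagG
In these 60 bases Iglc2 and Iglc3 differed at 4 positions, whereas Iglc1 differed from each of them at 12.

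Over the whole coding sequence, Iglv1 and Iglv2 were 96.9% identical (11 of 351 aligned positions differed), and Iglv3 was 55.7% identical to Iglv1 and 55.2% to Iglv2. Iglc2 and Iglc3 were 96.2% identical (12 of 315 positions differed), and Iglc1 was 73.4% identical to Iglc2 and 74.5% to Iglc3. The reads were 50 nt long, so a stretch of that length shared by 2 genes cannot be assigned to either. Of the 50-base windows of Iglv1, 22.2% occur unchanged in Iglv2, and of those of Iglv2, 24.0% occur in Iglv1. The share was 10.5% for Iglc2 and 10.7% for Iglc3, which share windows with each other, and no window of Iglv3 or Iglc1 occurs in another of the 6 genes. The longest stretches that the close copies share are shown here, 104 bases of the V pair (chr16:19085151-19085254 in Iglv1 and chr16:19260535-19260638 in Iglv2) and 79 bases of the constant pair (chr16:19198670-19198748 in Iglc2 and chr16:19065499-19065577 in Iglc3).
Iglv1 and Iglv2: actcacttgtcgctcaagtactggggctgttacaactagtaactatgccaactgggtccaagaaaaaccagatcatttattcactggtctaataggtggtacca
Iglc2 and Iglc3: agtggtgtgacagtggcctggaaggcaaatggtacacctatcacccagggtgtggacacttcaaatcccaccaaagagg
Treatment of reads from such stretches in the authors' counting is not given in the sources used here. Values of Iglv1 and Iglv2, and of Iglc2 and Iglc3, are therefore uncertain as to how counts were divided between the 2 copies.

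The libraries, numbered 1 to 4, held 13777954 to 14629025 counts in genes. CPM, a gene's count scaled by the total of its library, is 0.205 to 0.218 for 3 counts, the most that a gene with 0 counts is taken to allow. Library 3 differed from the rest in sex-linked genes. It had 1307 counts of the Y-linked Ddx3y against 3 or fewer elsewhere, and 6 counts of Xist against 8689 or more elsewhere. This is a male pattern in library 3 and a female one elsewhere, so library 3 was not a technical repeat of the others. Sex and any other difference of library 3 cannot be told apart. Markers of the labelled cell type were found in every library. The 6 germinal centre genes summed to 1072 to 1485 CPM, 5 naive B cell genes to 1583 to 2826 CPM, 7 plasma cell genes to 1186 to 2722 CPM, 8 T cell genes to 102 to 304 CPM, and 7 myeloid and erythroid genes to 110 to 203 CPM. In these bulk samples, fewer cells of a type and less RNA per cell cannot be told apart.

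Lambda RNA was a small part of the light chain RNA in each library, and Iglv1 and Iglc1 gave most of its counts. The 6 genes together took 0.0607%, 0.103%, 0.0587% and 0.0733% of all counts in libraries 1 to 4. The next paragraphs give first the V genes, then the J segments, then the constant genes.

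Iglv1, the V gene of the lambda1 chain, had 1558, 3532, 1429 and 2250 counts in libraries 1 to 4, or 111, 256, 97.7 and 157 CPM (155 ± 72, mean ± SD, n = 4, as for all values with ± below). Library 2 was the highest and library 3 the lowest, 2.62-fold apart. Iglv2, its near copy, had 104, 131, 125 and 288 counts, or 7.38, 9.51, 8.54 and 20.1 CPM (11.4 ± 5.89). Library 4 stood above the other libraries for Iglv2, whereas for Iglv1 it lay between library 2 and the rest. Iglv3, which belongs to the lambda chains called lambdax and is unlike the other V genes in sequence, had 456, 587, 310 and 504 counts, or 32.4, 42.6, 21.2 and 35.2 CPM (32.8 ± 8.89). Library 3 was the lowest for Iglv3, and the libraries spanned 2.01-fold.

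Within the lambda V counts, Iglv1 took 73.6%, 83.1%, 76.7% and 74.0% in libraries 1 to 4 (76.8 ± 4.41). The share of Iglv3 was 21.5%, 13.8%, 16.6% and 16.6% (17.1 ± 3.21), so it was largest where that of Iglv1 was smallest, library 1. Iglv2 took 4.91%, 3.08%, 6.71% and 9.47% (6.04 ± 2.72). Shares sum to the whole within a library, so they do not move independently. Between Iglv2 and Iglv3 alone, the neighbours at the upstream end, the share of Iglv2 was 18.6%, 18.2%, 28.7% and 36.4%. The exact 95% binomial intervals of libraries 1 and 2 do not overlap those of libraries 3 and 4. Such intervals, here and below, cover counting error alone, and not how reads were divided between close copies.

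The J segments, each shorter than a read, gave few counts. Iglj1, the segment ahead of Iglc1, had 93, 173, 131 and 96 counts. Iglj3, ahead of Iglc3, had 139, 148, 106 and 107. Per 100 counts of Iglc1, Iglj1 gave 3.2, 2.94, 4.02 and 2.73, and per 100 counts of Iglc3, Iglj3 gave 9.0, 9.01, 5.71 and 6.52. The segment Iglj3p, without the joining letters, had at most 9 counts, and Iglj4 had 0 in every library. The segment Iglj2 was not analysed here. It lies within an annotated exon of Iglc2, so reads from it can count towards Iglc2.

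Iglc1, the constant gene of lambda1, had 2903, 5890, 3256 and 3519 counts, or 206, 427, 223 and 246 CPM (276 ± 103). Library 2 stood above the others, which lay within 206 to 246 CPM. Iglc2, the constant gene beside Iglv2 and Iglv3, had 1984, 2372, 1610 and 2281 counts, or 141, 172, 110.1 and 159 CPM (146 ± 27.0). The order of the libraries for Iglc2 was that for Iglv3, from library 3 at the bottom through libraries 1 and 4 to library 2. Iglc3, the near copy of Iglc2 that lies beside Iglc1, had 1545, 1643, 1857 and 1640 counts, or 109.7, 119, 127 and 115 CPM (118 ± 7.34). Its libraries lay within 1.16-fold of each other, and library 3, lowest for Iglc2, was the highest for Iglc3. An antisense gene, 2010309G21Rik, overlaps the exon of Iglc3 and had 36 to 51 counts. Since strand use in counting is not given in the sources used here, counts of the pair may be mixed. The constant gene of the fourth cassette, Iglc4, had 2, 8, 6 and 5 counts.

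**Figure D2:**
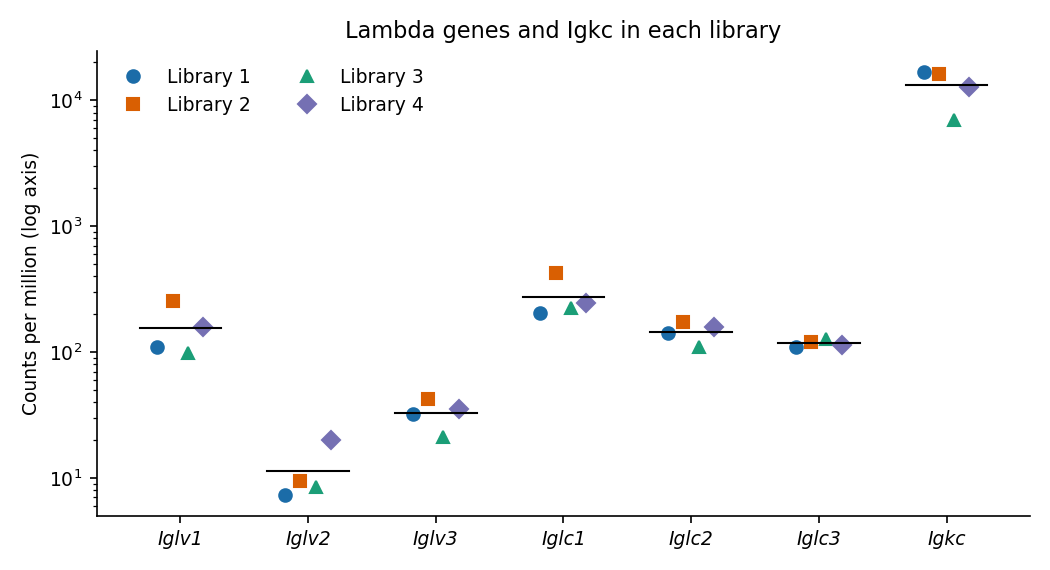
Level of each lambda gene and of Igkc in CPM on a log axis, 1 point per library, with a bar at the mean. Library 2 is the highest point for Iglv1 and Iglc1, library 4 is the highest for Iglv2, and the points of Iglc3 lie within 1.16-fold.

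Iglc1 took 45.1%, 59.5%, 48.4% and 47.3% of the counts of the 3 constant genes (50.1 ± 6.40). Iglc2 took 30.8%, 23.9%, 23.9% and 30.7% (27.3 ± 3.93), and Iglc3 24.0%, 16.6%, 27.6% and 22.0% (22.6 ± 4.61). Library 2 had the largest share of Iglc1 and the smallest of Iglc3. The counts of the J segments were set beside that comparison. A J segment is shorter than a read, so a read that covers it also covers sequence next to it. How such reads were counted is not given in the sources used here, so the J counts may not follow use of the constant genes. Iglj1 was 40.1% of the counts of Iglj1 and Iglj3 in library 1 (exact 95% interval 33.7 to 46.7), 53.9% in library 2 (48.3 to 59.4), 55.3% in library 3 (48.7 to 61.7) and 47.3% in library 4 (40.3 to 54.4). Iglc1 was 65.3%, 78.2%, 63.7% and 68.2% of Iglc1 and Iglc3. By the J counts library 2 could not be told from library 3 at this depth, whereas by the constant genes library 2 was the higher.

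Levels of different genes were compared per kilobase of exon, as mean CPM per kilobase. The order was Iglc1 (607), Iglv1 (398), Iglc3 (260.2), Iglc2 (238), Iglv3 (86.2) and Iglv2 (31.1), against 24826 for Igkc, the constant gene of kappa. With 4 libraries the smallest p of a two-sided exact sign-flip permutation test is 0.13, so no pair of neighbours in the order could pass 0.05. Iglc1 lay above Iglv1 in 4 of 4 libraries, by 0.65 ± 0.24 on the log2 scale of counts per kilobase. Iglv1 lay above Iglc3 in 3 of 4, by 0.51 ± 0.64, a difference smaller than its spread. Iglc3 and Iglc2 could not be ordered. Iglc3 was above Iglc2 in 2 of 4 libraries, by 0.15 ± 0.34, and the difference turned to -0.27 when the Iglc2 exon that holds Iglj2 was left out of its length, to -0.27 per window of sequence unique to each gene, and to -0.018 without library 3. Iglc2 lay above Iglv3 in 4 of 4 libraries, by 1.49 ± 0.15, and Iglv3 above Iglv2 in 4 of 4, by 1.55 ± 0.66. The 3 differences seen in 4 of 4 libraries were larger than their SD and reached the smallest p this test allows (0.21 after Benjamini-Hochberg adjustment over the 5 pairs). Their size depended on the measure of length. Per window of unique sequence, Iglc1 lay above Iglv1 by 0.26 ± 0.24, Iglc2 above Iglv3 by 2.03 ± 0.15 and Iglv3 above Iglv2 by 1.14 ± 0.66. By the same measure Iglv1 lay above Iglc3 by 0.74 ± 0.64, in 4 of 4 libraries, and then also reached the smallest p of the sign-flip test.

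Igkc was set beside the lambda genes as the common measure. It had 237201, 224629, 101859 and 182087 counts, or 16837, 16303, 6963 and 12727 CPM (13208 ± 4546), so it was 2.42-fold lower in library 3 than in library 1. The sum of Iglc1, Iglc2 and Iglc3 spanned 1.57-fold, with 457, 719, 460 and 520 CPM. In counts per 1000 Igkc counts, that sum was 27.1, 44.1, 66.0 and 40.9 (44.5 ± 16.1). Library 1 was the lowest and library 3 the highest. Library 3 was thus high in this ratio with a constant gene sum near that of library 1, its Igkc count being the lowest.

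For single genes the ratio to Igkc gave orders of libraries other than CPM did. Per 1000 Igkc counts, Iglc1 was 12.2, 26.2, 32 and 19.3 (22.4 ± 8.54), Iglc2 8.36, 10.6, 15.8 and 12.5 (11.8 ± 3.16), and Iglc3 6.51, 7.31, 18.2 and 9.01 (10.3 ± 5.41). Library 3 was the highest for each constant gene. Iglc3, the least variable of the 6 genes in CPM, spanned 2.80-fold in this ratio. Per 1000 Igkc counts, Iglv1 was 6.57, 15.7, 14 and 12.4 (12.2 ± 3.98) and Iglv3 1.92, 2.61, 3.04 and 2.77 (2.59 ± 0.477). Iglv2 was 0.438, 0.583, 1.23 and 1.58 (0.958 ± 0.539). Library 1 had the lowest ratio for all 6 genes.

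As a share of all light chain constant counts (Iglc1 to Iglc3 with Igkc), lambda was 2.64% in library 1 (exact 95% interval 2.58 to 2.70), 4.22% in library 2 (4.14 to 4.31), 6.19% in library 3 (6.05 to 6.34) and 3.93% in library 4 (3.84 to 4.01), with a mean of 4.25 ± 1.47. Such intervals hold for counting error alone: without molecular identifiers, reads are not independent molecules. Among V genes, the share of Iglv1 to Iglv3 in all lambda and kappa V counts was 3.07%, 5.83%, 7.37% and 6.08% (5.59 ± 1.81). Library 1 was the lowest and library 3 the highest by either measure.

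**Figure D3:**
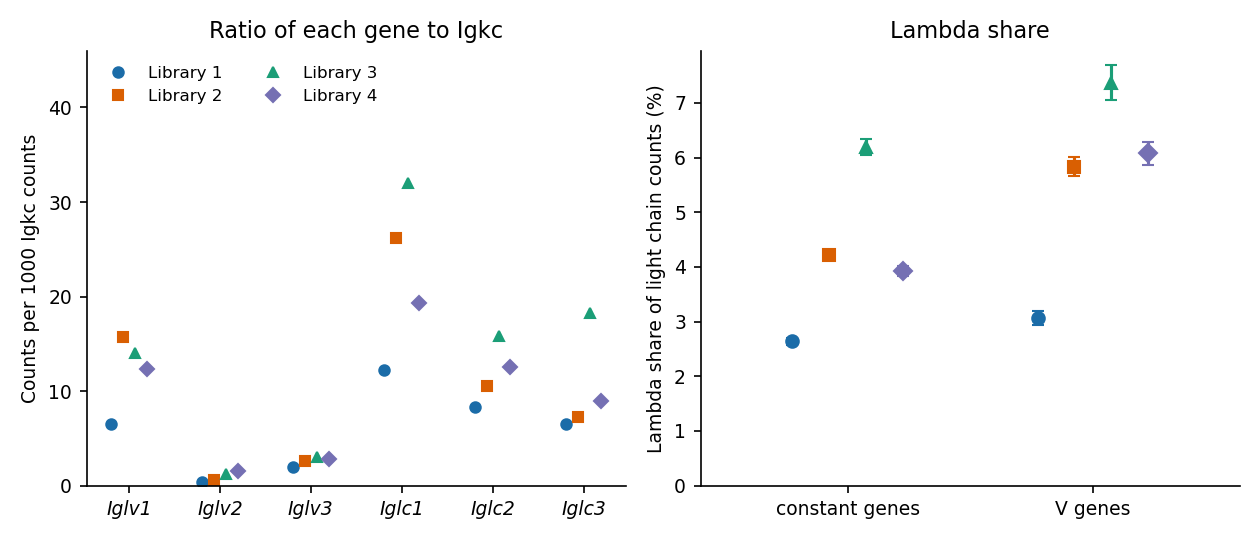
Left, counts of each lambda gene per 1000 Igkc counts in each library. Right, lambda share of light chain counts in percent, for constant genes and for V genes, with exact 95% binomial intervals. Library 1 is the lowest and library 3 the highest in both shares.

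Plasma cell genes, like Igkc, were lowest in library 3. The 7 genes of that list summed to 2722, 2492, 1186 and 2377 CPM in libraries 1 to 4, and none was at 0. Of the 6 that could be tested for variation as described below, 4 had an unadjusted p under 0.05, against 4.97% of all genes tested, and none passed the adjusted p. Txndc5, a chaperone, was at 378 ± 59.6 CPM and Tnfrsf17, a survival receptor, at 1.88 ± 1.01. Jchain, which links antibody units and is made in plasma cells, was 107.5, 100.2, 92.1 and 125 per 1000 Igkc counts. Sdc1, a plasma cell surface protein, was 1.80, 1.58, 1.51 and 2.03 per 1000. Across the libraries these ratios to Igkc moved less than that of the lambda constant genes, which spanned 2.43-fold. The part of plasma cell RNA in the lambda share was not tested. The 8 T cell genes summed to 304, 142, 102 and 246 CPM, which is the reverse of the order of the libraries by the lambda share of constant counts, though not fully by that of V counts. None of these genes was at 0, with Trac, a T cell receptor constant gene, at 56.5 ± 26.9 CPM and Cd3d, a receptor subunit, at 12 ± 6.05. All 8 had an unadjusted p under 0.05 and none passed the adjusted p, and the part of T cell RNA in the lambda share was not tested. The sum of all kappa V genes was also lowest in library 3, with 4751, 4980, 1601 and 3287 CPM.

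The ratio of V to constant counts was taken along the order of the locus. How many reads of mutated V regions or across V-J joins were left uncounted was not tested. These ratios, like the V shares above, are therefore of counts and not of transcripts. Per 100 counts of Iglc1 and Iglc3, Iglv1 gave 35.0, 46.9, 27.9 and 43.6 (38.4 ± 8.56). Per 100 counts of Iglc2, Iglv2 and Iglv3 gave 28.2, 30.3, 27.0 and 34.7 (30.1 ± 3.39). Kappa gave 28.2, 30.5, 23 and 25.8 counts in V genes per 100 of Igkc (26.9 ± 3.23). Library 3 had the lowest ratio in all 3 cases. The 2 lambda pairings overlapped over the libraries, as did that of Iglc2 and kappa. Against Iglc1 alone, Iglv1 gave 53.7, 59.97, 43.9 and 63.9 per 100 (55.4 ± 8.74). When Iglc2 and Iglc3 were summed because they are close copies, Iglv2 and Iglv3 gave 16.6 per 100.

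Variation between libraries was tested for all genes together, since there is no contrast. The test asks whether a gene's spread exceeds that of genes at its level, using edgeR's quasi-likelihood fit, and reports the gene's dispersion over the trend. Of 11982 genes tested, 1 passed an adjusted p of 0.05 (0.00835%), the kappa V gene Igkv14-126, and 595 had an unadjusted p under 0.05 (4.97%). None of the 6 lambda genes passed the adjusted p, and 3 of 6 had an unadjusted p under 0.05. By DESeq2's flag for outlying dispersion 1 of 6 stood out, Iglv1, against 208 of 31026 genes with a count (0.670%). Without a filter on low counts 2 of 6 passed edgeR's adjusted p, Iglv1 and Iglc1, against 262 of 31026 genes (0.844%).

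Iglv1 had the largest dispersion of the 6, at 17.3 times the trend (rank 126 of 11982, edgeR adjusted p = 0.448). Iglc1 was at 10.7 times (rank 234, adjusted p = 0.687) and Iglv2 at 5.47 times (adjusted p = 0.990), and these 3 were the genes with an unadjusted p under 0.05. Iglv1 and Iglc1 are the V and constant parts of the same chain, and library 2 was the highest for both. Without library 2 the dispersion of Iglc1 was 0.643 times the trend and that of Iglv1 5.90 times. Without library 1 it was 16.6 times for Iglc1 and 28.7 times for Iglv1. Without library 4 that of Iglv2 was 0.462 times the trend. Iglv3 was at 4.84 times and Iglc2 at 3.64 times (adjusted p = 0.990 for each). Without library 3 these were 1.62 and 1.31 times, and without library 1 they were 9.44 and 7.78 times. None of the 6 genes passed the adjusted p with any library left out. Iglc3 was at 0.377 times (adjusted p = 0.992), and 22.3% of the genes tested were less variable.

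The histogram of dispersions shows Iglc3 inside the bulk of all genes and Iglv1 and Iglc1 in its upper tail. The coefficient of variation gave the same order for the constant genes. It was 46.3% for Iglv1, 51.7% for Iglv2, 27.1% for Iglv3, 37.2% for Iglc1, 18.5% for Iglc2 and 6.24% for Iglc3. Among genes within 2-fold of their level the median lay between 12.6% and 17.5%. Of these, 98.9% lay below Iglv1, 98.2% below Iglc1 and 10.2% below Iglc3.

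The kappa V genes give a measure of how far V genes of the other light chain varied. Of 78 kappa V genes tested, 71 had an unadjusted p under 0.05, with a median dispersion of 22.3 times the trend, against 0.895 for all genes tested and 5.16 for the 6 lambda genes. Of heavy chain V genes, 73 of 86 had such a p, with a median of 20.3, and of all genes tested 4.97% did. Of the 78 kappa V genes, 31 were less variable than Iglv1, 7 less than Iglv2 and 5 less than Iglv3. This sets 3 lambda V genes beside many kappa V genes as a description, and the difference was not tested.

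**Figure D4:**
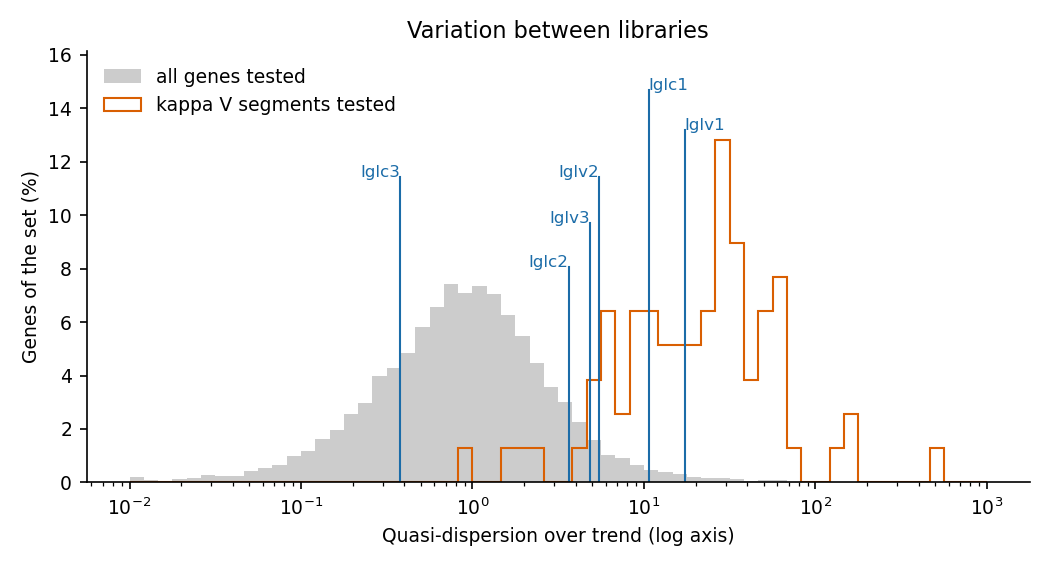
Horizontal log axis, dispersion of a gene over the trend of genes at its level; vertical axis, percent of the genes of a set in each bin, for all genes tested (grey) and kappa V genes (orange outline), with a blue line at each lambda gene whose height has no meaning. Iglv1 is highest of the lambda genes at 17.3 times the trend and Iglc3 lowest at 0.377 times, against a median of 22.3 for kappa V.

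The profile of each lambda gene over the 4 libraries was set against 8345 other genes with a mean of at least 10 CPM. The measure was the root mean square difference of centred log2(CPM + 0.5), where 0 is the same shape. With 4 points many genes fit by shape alone, so the counts of near genes are given too. Iglc1 was the 15th nearest gene to Iglv1 (0.205), behind Klf2 (0.0408) and Rhob (0.126) as the nearest. Klf2 was 635, 1429, 583 and 873 CPM, highest in library 2 as Iglv1 was. It is a transcription factor of resting B cells, and the naive B cell list it belongs to summed to 1583, 2826, 1866 and 2096 CPM, also highest in library 2, with no gene at 0. Of the 5 naive genes, Klf2 alone had an unadjusted p under 0.05, and Fcer2a, the receptor CD23, was at 567 ± 123 CPM and Ccr7, a homing receptor, at 153 ± 34.6. The germinal centre list summed to 1453, 1072, 1485 and 1165 CPM, lowest in library 2, and 2 of its 6 genes had an unadjusted p under 0.05 (Gcsam and Bcl6), none being at 0. The part of these cells in the levels of Iglv1 and Iglc1 was not tested. For Iglv1, 36 genes lay within 0.25.

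Iglc2 was the 21st nearest gene to Iglv3 (0.126), and the nearest were Ptpn22 (0.0615) and Igkv1-135 (0.0619), with 335 genes within 0.25. The genes nearest to Iglc1 were Pml (0.0855) and Igkv5-48 (0.0869), Iglv1 was the 64th nearest, and 142 genes lay within 0.25. Iglv2, which was high in library 4 alone, had Gm23935 (0.0469) and Fosl2 (0.137) nearest, 10 genes within 0.25, and its nearest lambda gene was Iglc2 at rank 1401 (0.486). Its near copy Iglv1 thus did not share its profile. Iglc2 had Gypc (0.0208) and H2-Q5 (0.0276) nearest and 1502 genes (18.0%) within 0.25. Iglc3 had Nt5m (0.00600) and Foxred1 (0.00650) nearest, and 6304 genes (75.5%) lay within 0.25, which is what a nearly flat profile gives.

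**Figure D5:**
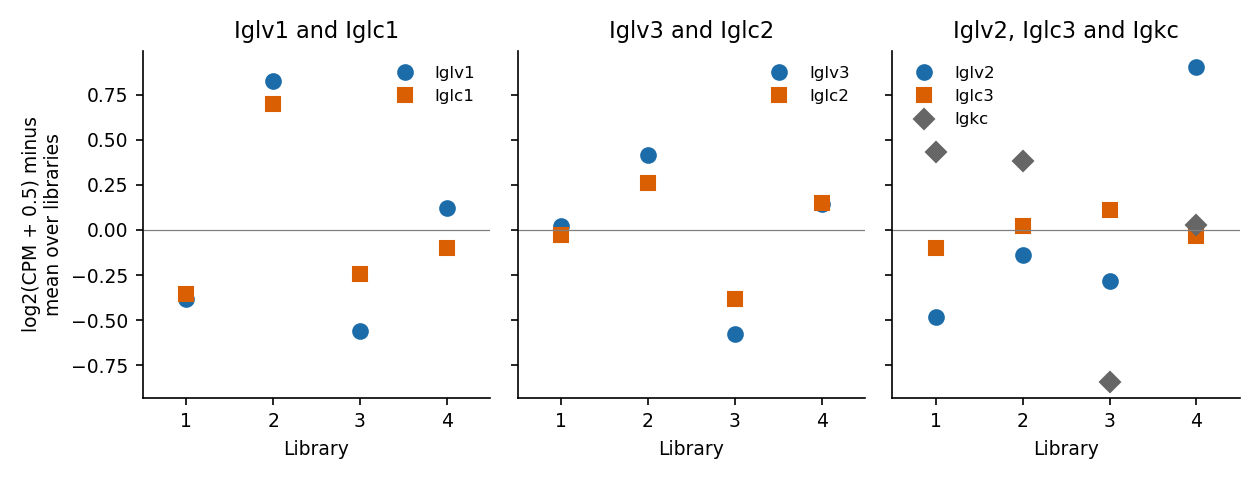
Centred log2(CPM + 0.5) by library in 3 panels, Iglv1 with Iglc1, Iglv3 with Iglc2, and Iglv2 with Iglc3 and Igkc, where 0 is the gene's own mean. Iglv1 and Iglc1 peak in library 2, Iglv2 in library 4, and Iglc3 stays near 0.

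The remaining genes of the lambda pathway were taken from lists, which were chosen with earlier results of these data known. Over all genes tested, 4.97% had an unadjusted p under 0.05. In the lists of this paragraph and the next, genes with such a p are named because of it. Of the surrogate light chain genes, which stand in for a light chain in B cell precursors, Igll1 had 0, 0, 0 and 5 counts and Vpreb1 at most 1. Vpreb3, a related gene also made in mature B cells, had 1161, 653, 910 and 802 counts. Of the list of other lambda and surrogate genes, only Iglj1, Iglj3 and Vpreb3 could be tested. None of these 3 had an unadjusted p under 0.05. The recombinase genes that join V to J were at the limit of detection. Rag1 had 0, 0, 0 and 2 counts and Rag2 had 0 in every library. Of 11 recombination genes, 8 could be tested and none had an unadjusted p under 0.05, with Hmgb1 (95.1 ± 19.1 CPM), a DNA-bending cofactor, and Prkdc (67.8 ± 6.53), the kinase of DNA end joining, among those with the most counts.

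Of 12 factors known at light chain enhancers and promoters, 1 had an unadjusted p under 0.05 and none passed the adjusted p. Among all genes tested 4.97% had such a p, so 1 of 12 says little about this list. That gene was Irf4, which acts at the lambda enhancers together with Spi1, at 203, 381, 322 and 340 CPM, lowest in library 1. Pax5, the factor that keeps B cell identity, was at 1251 ± 159 CPM and Pou2af1, a coactivator at V gene promoters, at 771 ± 212. Pou2f1, an octamer-binding factor, was at 45.8 ± 6.39. Of 10 receptor partner and antibody assembly genes, 3 had an unadjusted p under 0.05 (Jchain, Pdia4 and Mzb1). Jchain was at 641 CPM in library 3 and at 1595 to 1811 in the others. Hspa5, the chaperone that holds unassembled antibody chains, was at 1214 ± 69.9 CPM, and Ppib, a prolyl isomerase of the same compartment, was at 51.5 ± 5.33. Of the 6 kappa constant and joining genes, 4 had an unadjusted p under 0.05 (Igkj1, Igkj2, Igkj4 and Igkj5). Igkj2 was at 125 ± 46 CPM, and Igkj3, whose splice signal is defective, at 2.21 ± 0.601.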

How the data were processed

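Reads of poly(A) RNA (single end, 50 nt, 4 libraries of 1 group) were processed by the authors with FastQC, STAR 2.5.2b and featureCounts 1.6.0 on mm10, per the submitters' processing notes. They deposited raw read counts, 1 whole number for each gene and library, without normalisation. Annotation release, strand setting and handling of multi-mapping reads are not given in the sources used here. CPM was computed on total counts. Lengths, positions and sequences came from GENCODE M21 (GRCm38, named mm10), which matched 37536 of 37646 identifiers, all 6 lambda genes included, and left 110 unmatched.

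The test of variation used edgeR 4.0.16 (R 4.3.3) with filterByExpr, TMM normalisation and an intercept-only quasi-likelihood fit, and p-values were adjusted by Benjamini-Hochberg over 11982 genes. Neighbouring levels were compared by exact sign-flip permutation, and shares have exact (Clopper-Pearson) intervals, with scipy 1.17.1. The variation test was also run on simulated counts with each gene at the trend of dispersion. The outcome is not given here and is no check of the test on these data. DESeq2 1.42.0, other normalisations, filters, denominators, lengths and each library left out served as alternatives. 2 alternatives for length were added after the data were seen. The genes and lists were chosen with earlier results of these data known, and 1 gene of the germinal centre list is not reported here. Genes named are the 6 lambda genes, Igkc, the analysed genes of the list of other lambda and surrogate genes (Iglj2 and Vpreb2 were not analysed here), from each other list described in detail the 2 with the highest and the 1 with the lowest mean CPM, and the 2 nearest profiles of each lambda gene. Others named were picked after their values were seen: Igkv14-126, Ddx3y, Xist, 2010309G21Rik, Irf4, Sdc1, and some of the listed genes with an unadjusted p under 0.05. The T cell list is an exception, with only its highest and its lowest gene named. So is the germinal centre list, with only Gcsam and Bcl6 named.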

Additional observations from a re-analysis of the deposited data

Results flagged for a closer look

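Of 38 sets of values examined, 1 had a library far from the others by Dixon's criterion at the 95% level, which chance meets in about 1 in 20 sets. It was the CPM of Iglv2, at 20.1 in library 4 against at most 9.51 in the other libraries. Library 4 was not far from the others by that criterion for Iglv1, Iglv3, Iglc1, Iglc2 or Iglc3.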

How the results depend on the processing

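The lambda share of light chain constant counts, the share of Iglv1 in lambda V counts and the share of Iglc1 in lambda constant counts moved by less than 1 SD under every alternative run. Leaving a library out cannot move a mean that far, so only the other alternatives could have shown such a shift. With counts divided by gene length the means were 4.62%, 76.2% and 53.8%, against 4.25%, 76.8% and 50.1%. With V genes in place of constant genes the lambda share was 5.59%. No lambda gene passed the adjusted p of the edgeR test under RLE size factors, total counts, a mean of at least 1 CPM, the robust fit or any library left out. Without a filter on low counts 2 passed, Iglv1 (adjusted p = 0.0112) and Iglc1 (0.0472), and DESeq2's outlier flag marked 1. Over all genes, 1 passed, against 10 with total counts, 262 without a filter, 63 with the robust fit, 208 flagged by DESeq2, and 0 to 19 with a library left out. The lambda constant sum was 171 per 1000 counts of kappa V genes, in place of 44.5 per 1000 of Igkc. Iglv1 gave 27.8 per 100 counts of all 3 constant genes, and Iglv2 with Iglv3 gave 16.6 per 100 of Iglc2 and Iglc3. The difference of Iglc3 over Iglc2 was -0.29 without length, -0.27 with the shorter Iglc2 length, -0.27 per unique window, and between -0.018 (without library 3) and 0.23 with a library left out. The cause was not tested. No paired analysis was possible because there is 1 group. The 6 genes rest on 104 to 5890 counts per library.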
